A study of Mus musculus with 5 samples.

Results

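Cdkn1c and the genes around it in the Kcnq1 imprinted domain of mouse chromosome 7 were described for their allele-specific CpG methylation (mC). The 9 genes, out of 53843 annotated on the chromosomes with calls, were Ascl2, Cd81, Tssc4, Kcnq1, Kcnq1ot1, Cdkn1c, Slc22a18, Phlda2 and Nap1l4, each taken with 2 kb either side. The domain was selected on the lower castaneus mC of the Cdkn1c island after Setdb1 depletion in these same libraries, so that contrast is described at Cdkn1c without a test, and tests were kept for the other 8 genes. The assay was eRRBS, an enhanced form of reduced representation bisulphite sequencing that reads CpG-rich fragments cut by the enzyme MspI, in mouse embryonic fibroblasts (MEFs) from female E13.5 embryos, which the labels give as of 129/C57 dams and CAST sires and the study's methods as 129/CAST. The control group held 3 libraries of genotype Setdb1+/+ Xist-deltaA/+ transduced with a Nonsilencing hairpin. The Setdb1 depleted group held 2 libraries of genotype Setdb1+/gt Xist-deltaA/+ transduced with shSetdb1, so that the gene trap allele and the hairpin came together and cannot be told apart. Since the genotypes differ, the cells of the groups came from different embryos. Differences between embryos cannot be told apart from depletion either. The gene trap interrupts 1 copy of Setdb1 and leaves the other, and cells were selected for the retroviral hairpins with puromycin. All 5 libraries carried the Xist-deltaA allele, and all came from the same direction of cross. Maternal therefore always means domesticus and paternal always means castaneus, and parent and strain cannot be told apart. No RNA was measured in these libraries, so the level of Setdb1 could not be checked in them.

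The Kcnq1 domain is a cluster of imprinted genes, which are expressed mainly from the copy of 1 parent. The promoter of the long noncoding RNA Kcnq1ot1 lies in an intron of Kcnq1. It is methylated in the egg, so the RNA is made from the paternal copy, where it represses neighbouring protein-coding genes in cis. Cdkn1c encodes the cell cycle inhibitor p57Kip2, is expressed from the maternal copy and is known to gain methylation on the silent paternal copy after implantation. Setdb1 is a methyltransferase for lysine 9 of histone H3.

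Each library held between 9423676 and 10544079 calls at reference CpGs per allele, spread about equally over 4 lanes of 1 flow cell. A call is the state of 1 CpG in 1 read, and % mC is the methylated share of the calls. The alleles were checked at Zrsr1, an imprinted gene methylated on the maternal copy, where domesticus mC ranged from 93.1 to 97.4% and castaneus mC from 0.785 to 4.65% per library. Of 439 called positions in the 9 genes, 71 had more than 20 calls in every library on at least 1 allele, 40 for domesticus and 60 for castaneus, with 29 on both. No position of Slc22a18 passed that minimum on either allele. The labels do not say whether libraries of a group came from separate embryos, and p-values measure only the spread between these samples.

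The sequences that carry the results are short MspI fragments, read from the mm10 reference on the plus strand. All castaneus calls of the Cdkn1c island came from the first, which lies in an intron of the gene. The second lies in an exon of Kcnq1ot1, the third just upstream of Ascl2, and both others in introns of Kcnq1, each with a position called between alleles in a fit added after the data were seen. Capitals mark the cytosines used on the plus strand, and each G opposite a cytosine used on the minus strand. Cdkn1c lies at chr7:143458339-143461050 and Kcnq1ot1 at chr7:143203458-143296549, both on the minus strand.
Cdkn1c, chr7:143459334-143459451: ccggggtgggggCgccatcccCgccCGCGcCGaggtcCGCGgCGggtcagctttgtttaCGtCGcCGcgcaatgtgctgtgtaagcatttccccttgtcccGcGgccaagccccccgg
Kcnq1ot1, chr7:143295468-143295619: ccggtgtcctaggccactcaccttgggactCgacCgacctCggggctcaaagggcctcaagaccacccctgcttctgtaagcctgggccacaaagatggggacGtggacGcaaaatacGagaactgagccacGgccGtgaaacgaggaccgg
Ascl2, chr7:142969376-142969486: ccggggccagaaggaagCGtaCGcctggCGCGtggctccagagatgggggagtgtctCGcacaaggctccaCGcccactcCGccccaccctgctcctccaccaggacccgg
Kcnq1, chr7:143165624-143165769: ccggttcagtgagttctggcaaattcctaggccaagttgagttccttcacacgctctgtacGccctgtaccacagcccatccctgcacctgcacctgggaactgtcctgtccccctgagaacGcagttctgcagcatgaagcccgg
Kcnq1, chr7:143328616-143328664: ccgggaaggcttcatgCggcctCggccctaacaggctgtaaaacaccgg

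On the paternal castaneus allele, the Cdkn1c island (chr7:143459056-143461477) was partly methylated in every control library and close to unmethylated in both depleted libraries. The 3 control libraries had 17% (151 of 887 calls, 95% Wilson interval 14.7 to 19.6), 14.8% (151 of 1020, 12.8 to 17.1) and 18.2% (212 of 1167, 16.1 to 20.5). Both depleted libraries were far below them, at 1.24% (13 of 1052 calls, 0.724 to 2.10) and 1.11% (14 of 1262, 0.662 to 1.85). The group values were 16.7% ± 1.71 (SD, n = 3) and 1.17% ± 0.0894 (SD, n = 2), and the libraries did not overlap. The intervals treat every call as independent, but the calls came from 81 to 116 reads per library and methylated calls sat together on reads. They are thus too narrow even for counting error. Reads without molecular identifiers may also be copies of 1 molecule. The island spans 2422 bases and 270 CpGs, but the calls fell on 13 of these CpGs (4.81%), so the value describes 1 intronic fragment and not the promoter of the gene.

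The lower paternal mC held along the whole fragment. The 22 castaneus positions, 11 on each strand, lay 1613 to 1704 bases downstream of the Cdkn1c start and had 25 to 67 calls per library. Control means ran from 3.84 to 36.6% with a median of 14.2%, and depleted means from 0 to 5.36%. The depleted mean was lower at 22 of 22 positions, and the libraries did not overlap at 18, all lower. Among all castaneus positions tested on the autosomes, 9.05% did not overlap and 4.37% did so with the depleted libraries lower. Since this contrast chose the gene, nothing is read from that count. At 13 of the 22 positions no methylated call was left in either depleted library. The highest position was chr7:143459400, with 30.8, 32.8 and 46.3% in the control libraries and 7.27 and 3.45% in the depleted libraries. Every control library was above both depleted libraries there. The lowest position in controls was chr7:143459376, with 9.09, 0 and 2.44% in control and 0 and 0% in depleted libraries, where the groups overlapped.

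**Figure D1:**
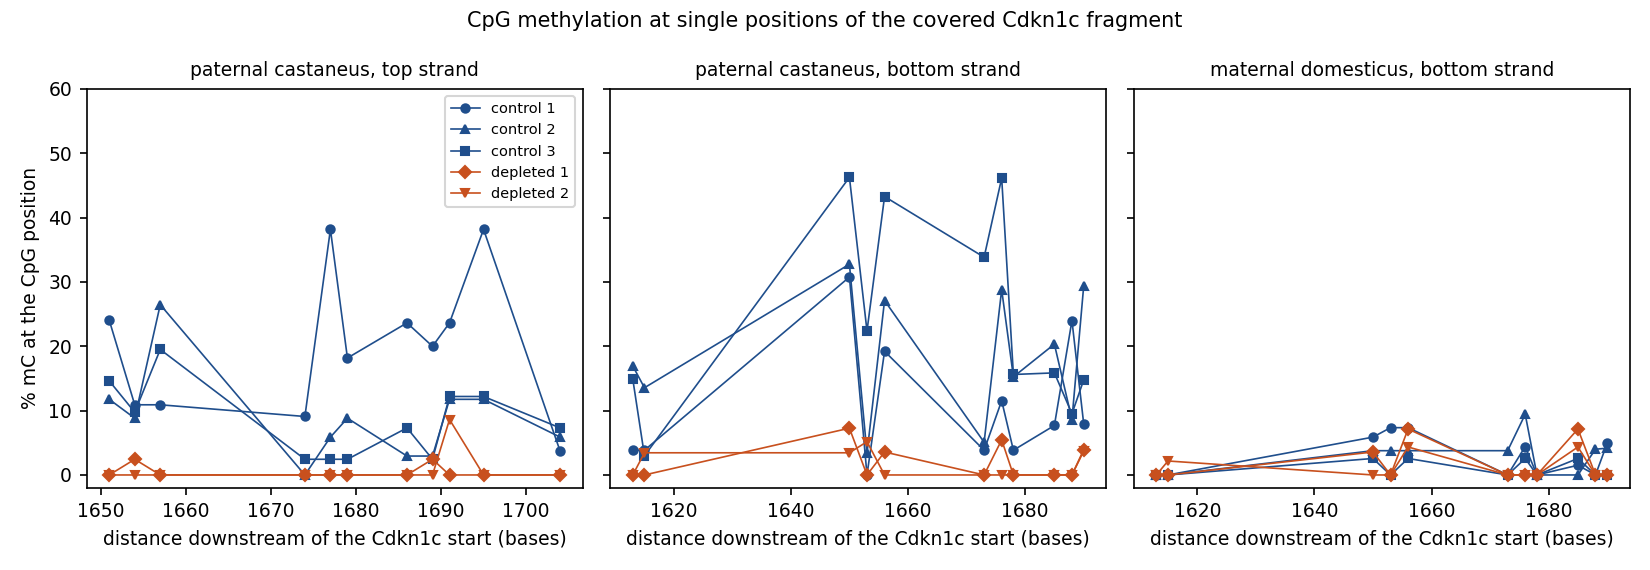
Percent mC (vertical axis) at each position of the Cdkn1c fragment with more than 20 calls in every library, against the distance in bases downstream of the gene's start, in 3 panels for castaneus top strand, castaneus bottom strand and domesticus bottom strand. Each line is 1 library, blue for control and orange for Setdb1 depleted, and the blue castaneus lines reach 46.3% while the orange lines stay at or below 8.62%.

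Single reads showed how the paternal methylation was arranged on the molecules. Of castaneus reads with at least 3 CpG calls, the share with any methylated call was 49.4% (40 of 81 reads, 95% Wilson interval 38.8 to 60), 60.2% (56 of 93, 50.1 to 69.6) and 54.6% (59 of 108, 45.2 to 63.7) in the control libraries. It was 13.4% (13 of 97 reads, 8 to 21.6) and 12.1% (14 of 116, 7.33 to 19.2) in the depleted libraries, below every control library. Control castaneus reads were thus divided between those free of methylation, 41, 37 and 49 reads, and those that carried some. Reads with every call methylated were nearly absent: 0 of 81, 0 of 93 and 1 of 108 in controls, and 0 of 97 and 0 of 116 in depleted libraries. A count of 0 of 81 reads allows up to 3.7%. Most methylated control reads were mosaics, with a mean of 3.35 ± 0.573 methylated calls per methylated read (SD, n = 3) and at most 9, 7 and 11 in the 3 libraries.

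What was missing after depletion were the reads with several methylated CpGs. Reads with 2 or more methylated calls made up 34.6% (28 reads), 30.1% (28 reads) and 37.0% (40 reads) of castaneus reads in the control libraries and 0% in both depleted libraries. The 0 of 97 and 0 of 116 reads allow up to 3.09 and 2.59%. Each of the 13 and 14 methylated castaneus reads left in the depleted libraries carried 1 methylated call. Reads with 1 methylated call were also lower, at 14.8, 30.1 and 17.6% in control and 13.4 and 12.1% in depleted libraries. Reads with at least 50% of their calls methylated were 11.1, 7.53 and 16.7% in controls and 0% in the depleted libraries, again without overlap. The methylated control reads fell into 20, 27 and 26 distinct patterns, and the commonest pattern recurred in 5, 6 and 8 reads. All reads of the fragment start at the same cut sites, so copies made by PCR and independent molecules with the same pattern cannot be told apart.

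**Figure D2:**
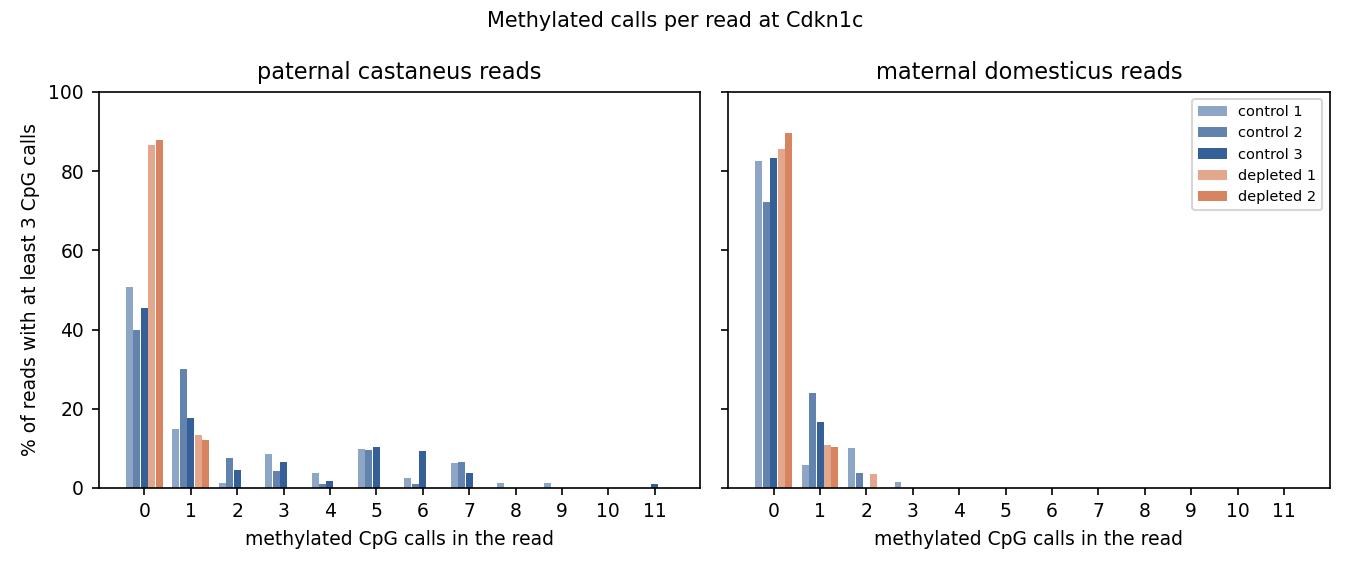
Share of reads (vertical axis, % of reads with at least 3 CpG calls) by the number of methylated calls in the read (horizontal axis) in the Cdkn1c island. Castaneus is on the left and domesticus on the right, with 1 bar per library, blue for control and orange for Setdb1 depleted. Control castaneus reads spread from 0 to 11 methylated calls, while depleted castaneus reads held 0 or 1.

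Both strands of the paternal fragment had the lower value after depletion, but the strands differed within libraries. Top strand mC was 20.1, 8.82 and 8.43% in control and 0.443 and 0.790% in depleted libraries, from 374 to 633 calls. Bottom strand mC was 10.6, 18.3 and 24.3% in control and 1.83 and 1.43% in depleted libraries, from 284 to 716 calls. The strand that was higher was not the same in every control library. At the 9 CpGs covered on both strands, the top strand was higher at 6 in control replicate 1, at 1 in control replicate 2 and at 0 in control replicate 3. Depleted minus control was -11.8 points on the top strand and -16.1 points on the bottom strand, and on each strand every control library was above both depleted libraries.

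The maternal domesticus allele of Cdkn1c, the expressed copy, was nearly unmethylated in all libraries. Its island mC was 2.82% (21 of 746 calls), 2.92% (17 of 583) and 1.52% (7 of 461) in controls, and 1.63% (10 of 614) and 0.958% (5 of 522) in depleted libraries. The groups overlapped, at 2.42% ± 0.779 (SD, n = 3) and 1.29% ± 0.474 (SD, n = 2). Of 11 positions with enough calls, all on the bottom strand, the depleted mean was lower at 6 and higher at 3, and the libraries did not overlap at 2, of which 1 was lower. Among all domesticus positions 9.34% did not overlap and 4.52% did so with the depleted libraries lower. Domesticus reads with a methylated call made up 17.4, 27.8 and 16.7% in controls and 14.3 and 10.4% in depleted libraries, at 20.6% ± 6.22 (SD, n = 3) and 12.4% ± 2.76 (SD, n = 2). These did not overlap, but on the bottom strand alone, without the 3 top-strand reads of control replicate 3, they did, at 17.6, 28.3 and 10.3% in control and 14.3 and 10.9% in depleted libraries. No domesticus read had 50% or more of its calls methylated. In the depleted libraries the castaneus share, 13.4 and 12.1%, lay close to that of the domesticus reads. Over the 11 positions covered on both alleles, maternal minus paternal mC was below 0 in 5 of 5 libraries, with -7.74, -15.3 and -23.2 points in the control libraries and -0.215 and -0.446 points in the depleted libraries. Its mean over both groups was -9.39 points, and -5.93 points without control replicate 3. In the depleted libraries the difference lay close to 0. The castaneus values chose the gene, so the difference was not tested, and nothing is read from its sign or mean.

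Islands with values like those of Cdkn1c are given as a description only, since the likeness used the values that chose the gene. Among 5932 other autosomal islands covered on both alleles, the nearest by Euclidean distance over the 10 values of both alleles was at Btnl9 (chr11:49169119-49169636), at a distance of 13.7 points. Its castaneus mC was 19.3, 15.9 and 19.5% in control and 10.6 and 7.93% in depleted libraries, with 2.48 to 6.22% on the domesticus allele. The next, at Gm20472 (chr12:23314763-23315613, distance 14.3), had castaneus mC of 12.4, 10.0 and 6.34% in control and 3.03 and 3.78% in depleted libraries, which did not overlap, and at most 1.92% on the domesticus allele. The others were at an island near no annotated gene (chr5:149031299-149031612, 14.5), at Pdlim1 (chr19:40271087-40271733, 15.6) and at AC163633.1 and Mrto4-ps1 (chr12:20415388-20416495, 15.6). Whether the chromosome 12 islands share reads with copies elsewhere was not tested. The castaneus values of the groups did not overlap at AC163633.1 and Mrto4-ps1, with 22.9, 17.7 and 14.7% in control and 5.69 and 8.73% in depleted libraries. They did not overlap at the chromosome 5 island either, with 9.38, 10.3 and 15.8% against 8.79 and 8.41%. At Pdlim1 they overlapped, with 13.7, 11.8 and 13.3% against 12.1 and 8.82%.

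Kcnq1ot1, the paternally expressed noncoding RNA, was unmethylated on the paternal allele in every library at the 1 fragment with enough calls. The used positions lay 945 to 1051 bases inside the gene, at chr7:143295498-143295604. The castaneus allele had 0 methylated of 561, 607 and 621 calls in control and of 515 and 522 calls in depleted libraries. That allows at most 0.583% in the shallowest library if calls are independent, which calls of 1 read are not. All 704 castaneus reads there were free of methylation. The gene's whole window had 2845 castaneus calls, and its 15 methylated calls all lay outside this island, at positions under the minimum. The maternal allele had too few calls for a comparison.

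None of the other 8 genes had a position past the threshold after Setdb1 depletion. On the castaneus allele 0 of 38 positions passed, against 0.00229% of all 130869 tested (quasi-binomial model with limma moderation, Benjamini-Hochberg adjusted over all positions at 0.05), and 0 had an unadjusted p under 0.05, against 2.33% of all. On the domesticus allele 0 of 29 passed, against 0.0239% of 125478, and 1 had an unadjusted p under 0.05, against 2.3% of all. With limma in place of the model 0 passed on either allele, with 1 castaneus and 3 domesticus positions at an unadjusted p under 0.05 (4.98 and 5.07% of all), but it called 0% of all positions too, so nothing is read from that count. Fisher's exact test on pooled calls, which ignores the spread between libraries, passed 0 castaneus and 1 domesticus position, against 2.64 and 2.78% of all. The median difference over the 38 and over the 29 positions was 0 points, as it was over all positions. The differences ranged from -13.9 to 15.3 points on the castaneus and from -26.7 to 13.3 points on the domesticus allele. Most of these positions were close to 0% in controls and had no methylation to lose, so the counts and the median say little about a loss. With so few calls passing in the whole genome, these counts set no limit on small or large changes. The domesticus position at -26.7 points did not pass either. By island, 0 of 5 tested on the castaneus allele passed, against 0.0417% of all, and 0 of 5 on the domesticus allele, against 0%. The adjusted p of all 10 was 1 in that model. Averaged over its positions, 0 of 6 genes had groups that did not overlap on either allele, against 17.8% of all castaneus and 17.9% of all domesticus genes. The exact permutation p over these 12 comparisons ranged from 0.3 to 1 (two-sided, smallest possible 0.1 with 3 and 2 libraries). Kcnq1ot1 and Nap1l4 were at 0% in every library on the castaneus allele and could only overlap. The genes were not separate either. Cd81 and Tssc4 share 8 domesticus positions, and Kcnq1 and Kcnq1ot1 share 8 castaneus positions. Nothing is read from these gene counts.

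**Figure D3:**
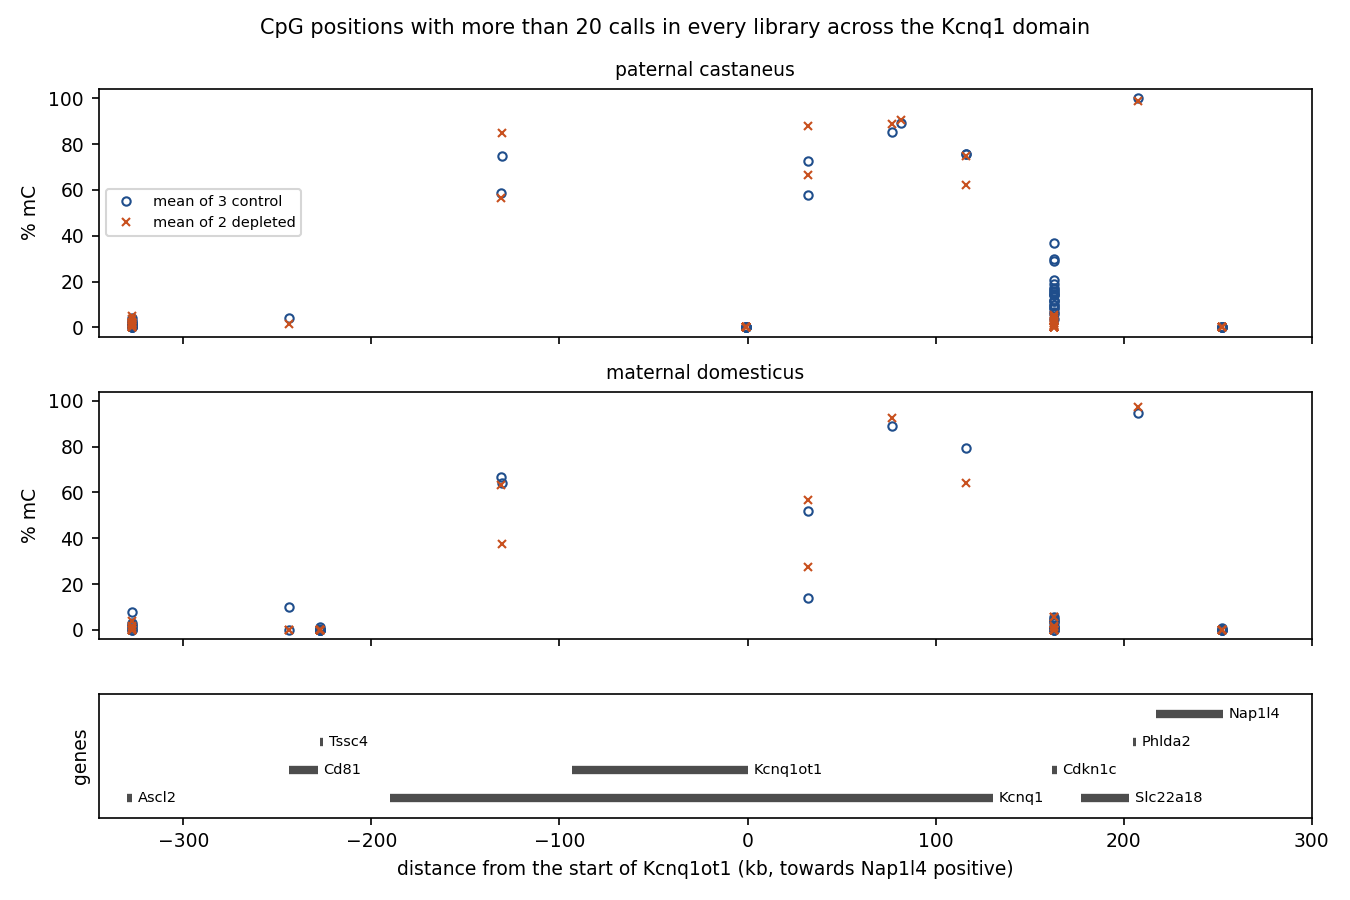
Mean mC (vertical axis, %) of the 3 control libraries (open circles) and the 2 depleted libraries (crosses) at each position with more than 20 calls in every library, on the castaneus (top) and domesticus (middle) allele, against the distance in kb from the start of Kcnq1ot1, with the genes drawn to scale below. Most positions outside Kcnq1 introns lie close to 0%, with the Phlda2 position above 90% on both alleles. On the castaneus allele circles lie above crosses at all 22 Cdkn1c positions. On the domesticus allele they do so at single Kcnq1 positions, such as 64.1 against 37.4% at chr7:143165746. There the castaneus cross lies above the circle, at 84.77 against 74.65%.

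In the introns of Kcnq1, a potassium channel gene, methylation varied widely between positions, from the unmethylated ones within Kcnq1ot1 to some above 90%, and no position passed the planned test between alleles. Over the 6 positions covered on both alleles, maternal minus paternal mC averaged -13.8 points ± 6.43 (SD, n = 5) and was below 0 in 5 of 5 libraries (exact permutation of signs, two-sided, p = 0.062, which is the lowest value 5 libraries can give). The size depended on the reads and positions used. It was -4.49 points with reads marked by the sequencer's filter left out and -2.05 with at least 40 calls, neither of which left a value at chr7:143328638, and -8.86 with at least 10 calls. The value at 40 calls is that of chr7:143412756 alone, where 2 libraries were higher on the maternal and 3 on the paternal allele. Positions of 1 fragment share reads, and 3 genes were compared in this way. By position, 0 of the 18 positions outside Cdkn1c covered on both alleles passed limma's test of the log2 ratio of methylated to unmethylated calls, against 0.309% of all 58939, and 4 had an unadjusted p under 0.05, against 10.2% of all. With a pseudocount of 1 it passed 1 of the 18, against 0.506% of all. A limma fit with a variance trend on positions with at least 50 methylated and 50 unmethylated calls, added after the files were seen, took in 6 of the 18 and called 2 of them, both lower on the maternal allele, against 9.57% of all 13861.

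The first of these, chr7:143328638, lies in an intron 222276 bases downstream of the Kcnq1 start. Maternal mC was 13.0, 19.4 and 9.52% in control and 17.4 and 37.1% in depleted libraries, from 21 to 35 calls. Paternal mC was 70.3, 51.9 and 51.7% in control and 54.5 and 78.6% in depleted libraries, from 22 to 37 calls. Every paternal value was above every maternal value, and the mean difference was -42.1 points ± 9.30 (SD, n = 5). With both groups weighted equally, as in the limma fits, the difference was -41.6 points. Its adjusted p was 0.0793 in the first limma fit and 0.00473 in the fit with the trend. The position is 6 bases from chr7:143328632, where the mean difference was -24.7 points ± 12 (SD, n = 5), with the maternal allele lower in 5 of 5 libraries. With both groups weighted equally that difference was -25.8 points, with adjusted p-values of 0.166 and 0.0820 in the same limma fits. In reads across both, summed over the libraries, 56.6% of 143 castaneus reads were methylated at both CpGs, against 12% of 133 domesticus reads. Of the domesticus reads, 42.9% were methylated at the first CpG alone and 36.1% at neither.

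The second, chr7:143165746, lies 59384 bases downstream of the Kcnq1 start and had another arrangement. Maternal mC was 68.2, 73.2 and 50.9% in control and 32.7 and 42.1% in depleted libraries, from 44 to 76 calls. Paternal mC was 68.6, 76.0 and 79.3% in control and 83.3 and 86.2% in depleted libraries, from 29 to 58 calls. The alleles were within 3 points of each other in control replicates 1 and 2 and apart by 28.4 to 50.6 points in the other libraries. The mean difference was -25.3 points ± 23.1 (SD, n = 5). With both groups weighted equally, as in the limma fits, the difference was -29.0 points. Its adjusted p was 0.190 in the first limma fit and 0.00327 in the fit with the trend. The depleted libraries had lower maternal mC (-26.7 points, unadjusted p = 0.0125, adjusted p = 1, quasi-binomial fit moderated by limma) and higher paternal mC (10.1 points, adjusted p = 1), and the groups did not overlap on either allele. The change of the allele difference, -36.8 points, did not pass over all positions, with an unadjusted p of 0.0208 and an adjusted p of 0.964 in limma. Of the 18 positions 0 passed that limma test, as did 0% of all positions. An unadjusted p under 0.05 was found at 3 of the 18, against 4.93% of all. At its neighbour chr7:143165685, on the same fragment, the alleles overlapped, at 58.1 to 73.7% maternal and 47.2 to 68.0% paternal mC. Counted over the 8 genes, the groups did not overlap at 2 of 38 castaneus positions, against 9.05% of all, and at 2 of 29 domesticus positions, against 9.34% of all. These shares were below the background, and nothing is read from them. The positions were chr7:143165746 on both alleles, chr7:143328632 on the castaneus and chr7:142969393 on the domesticus allele.

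**Figure D4:**
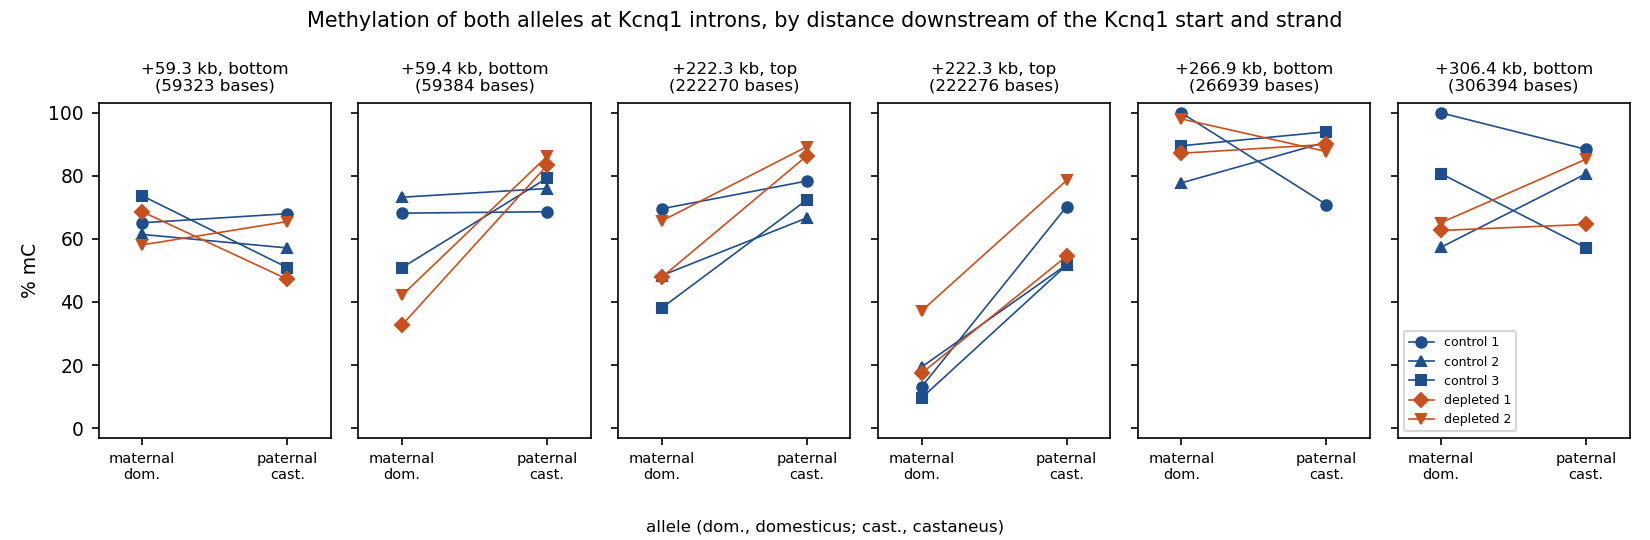
Percent mC (vertical axis) on the maternal domesticus and paternal castaneus allele of each library (joined points, blue for control and orange for Setdb1 depleted) at the 6 Kcnq1 intron positions covered on both alleles, each panel headed by the distance from the Kcnq1 start and the strand. At 222276 bases every line rises from the maternal (9.52 to 37.1%) to the paternal allele (51.7 to 78.6%), and at 59384 bases the lines of control replicates 1 and 2 are almost level.

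Averaged over its positions, Kcnq1 did not separate the groups on either allele, with 60.9% ± 7.32 (SD, n = 3) and 56.9% ± 5.88 (SD, n = 2) over 6 maternal positions and 36.8% ± 2.20 and 38.2% ± 4.21 over 16 paternal positions, 8 of which are the unmethylated ones in Kcnq1ot1. The remaining intron positions were mostly highly methylated. At chr7:143373301, the highest on the maternal allele, mC was 77.8 to 100% on the maternal and 70.9 to 94.0% on the paternal allele, and at chr7:143412756 it was 57.4 to 100% and 57.1 to 88.4%. The paternal position with the highest control mean, chr7:143377926, had 80 to 96.3%. At the first and second of these no allele was higher in all 5 libraries. The paternal position chr7:143412755 varied most within the depleted group, at 41.7 and 82.1%, against 60 to 86.2% in controls.

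The positions used near the starts of Ascl2, Tssc4 and Nap1l4 had low methylation, with control means of at most 7.70% on the alleles with enough calls. Tssc4 had no paternal position past the minimum. Its whole window held 21 to 37 paternal calls per library, of which 11 to 16 were methylated. Ascl2, a transcription factor gene needed in the placenta, was covered upstream, between -193 and -129 bases from its start. Its mean maternal mC was 1.90, 1.62 and 3.11% in control and 1.73 and 0% in depleted libraries over 7 positions, and its paternal mC was 0.433, 1.37, 1.58, 1.91 and 0.935% over 14 positions. The alleles overlapped, and maternal minus paternal was 0.356 points ± 1.13 (SD, n = 5; exact permutation of signs, two-sided, p = 0.562). At chr7:142969393, the highest maternal position, mC was 8.89, 7.55 and 6.67% in control and 3.03 and 0% in depleted libraries, which did not overlap (adjusted p = 1, quasi-binomial fit moderated by limma).

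Cd81, which encodes a tetraspanin of the cell surface, and Tssc4 had single positions past the minimum almost only on the maternal allele. Summed over its calls, the Cd81 island had 0% mC on the paternal allele in every library, from 154 to 233 calls. On the maternal allele it had at most 4.5%, from 150 to 300 calls. The 8 positions of the Tssc4 island, 119 to 177 bases inside that gene and also within the window of Cd81, had at most 3.7% at any position and library. At chr7:143052801 in the Cd81 island, maternal mC was 30.3% in control replicate 1 and 0% in the other 4 libraries, from 23 to 58 calls, while the cytosine beside it at chr7:143052803 was at 0% in all 5 libraries. That value rests on 1 library. On the paternal allele, chr7:143052591 upstream of Cd81 had 4.60, 0 and 6.98% in control and 0 and 3.23% in depleted libraries.

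Phlda2, which encodes a pleckstrin-domain protein that restrains placental growth, was sampled at 1 upstream CpG, at -1065 bases from its start. There mC was 91.9 to 100% on the maternal and 97.6 to 100% on the paternal allele, the highest of the domain. Its island, summed over all calls, was at most 1.37% on the maternal and 3.59% on the paternal allele, so the high value and the low values lay within 2 kb of each other. Nap1l4, a histone chaperone gene at the edge of the domain, had 0% at all 6 paternal positions in every library and a single methylated maternal value, 2.33% at chr7:143548687 in control replicate 1. Its 194 to 302 paternal calls per library allow up to 1.55% if calls are independent, which calls of 1 read are not. Slc22a18, a transporter gene, had at most 23 calls in its window per library and allele and was not compared.

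Genes flanking the domain and the other inhibitors of cyclin-dependent kinases had no position past the threshold either. Of 15 flanking genes listed, 14 are annotated and 6 had castaneus and 7 domesticus positions. In the quasi-binomial model with limma moderation 0 of 38 castaneus and 0 of 32 domesticus positions passed, against 0.00229 and 0.0239% of all, with 2 and 1 at an unadjusted p under 0.05, against 2.33 and 2.3% of all. The groups did not overlap in 1 of 6 castaneus genes, Cars, and in 2 of 7 domesticus genes, Th and Igf2, against the 17.8 and 17.9% of all genes given above. Between alleles, 0 of 25 flanking positions passed limma's test, against 0.309% of all, and the unadjusted p was under 0.05 at 9, against 10.2% of all, with a median difference of -3.15 points over the 25 and 0 over all positions. Igf2, a paternally expressed growth factor gene, had 4.00, 1.28 and 2.81% maternal mC in control and 6.94 and 7.35% in depleted libraries over 4 positions. Its paternal means over 13 positions, 8.5 and 10%, came from groups that overlapped. Cars and Th were lower after depletion, each at 1 position, with means of 96.1 and 83.2% for Cars castaneus and 24.6 and 15.3% for Th domesticus. Of the 6 other inhibitor genes listed, 4 had positions, and 0 of 82 castaneus and 0 of 76 domesticus positions passed, with 0 and 0 at an unadjusted p under 0.05, against the same shares of all positions. The groups did not overlap in 2 of 4 castaneus and 1 of 4 domesticus genes, against 17.8 and 17.9% of all genes. Gene means of these inhibitors were at most 7.1% in any library, so most of their positions had little methylation to lose. Cdkn1a, which encodes p21 of the same family as p57Kip2, stayed at or below 0.631% on both alleles in every library. Cdkn2a, which encodes p16 and p19Arf, had 2.79% ± 0.406 (SD, n = 3) castaneus mC in control and 3.84% ± 0.476 (SD, n = 2) in depleted libraries, and 6.57% ± 0.515 and 5.26% ± 0.696 on the domesticus allele, and its groups did not overlap on either, with the castaneus value higher after depletion.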

How the data were processed

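The libraries were 5 eRRBS libraries of female MEFs. From single-end reads trimmed by Trim Galore, the authors made Bismark alignments to an mm10 genome masked at strain differences, divided reads by allele and extracted CpG calls (extractor 0.13.0, per the file headers). Each deposited line is 1 CpG call of 1 read, unfiltered for coverage. The sources used here do not give a treatment of PCR duplicates.

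Calls were summed per position, and 98.8% of called positions lay at reference CpGs. Positions needed more than 20 calls in every library. Genes and places came from GENCODE M21, and CpG islands were found in the reference (17 per CpG, at least 200 bp, GC share 0.5, observed to expected ratio 0.6). Depletion was tested with a quasi-binomial model with dispersion moderated by limma 3.58.1 (R 4.3.3), prior from positions with at least 5 expected calls of each kind, and the alleles with limma on per-library differences of log2((mC + 0.5)/(C + 0.5)). p-values were Benjamini-Hochberg adjusted over all autosomal positions. List medians of allele differences give both groups equal weight. Gene means were compared by exact permutation. Reads with at least 3 calls were used for patterns. The fits were tested on simulated calls, where each missed part or all of the changes put in. Positions that did not pass may therefore still differ. Other steps used Python 3.11.15, numpy 2.4.6, pandas 2.3.3 and scipy 1.17.1.

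The members and lists were chosen with earlier results of these data known. Named were the 9 genes, the positions past a threshold, the highest and lowest positions where described, and the 5 islands nearest to Cdkn1c; chr7:143328632, chr7:143165685, chr7:143412755, chr7:143412756, chr7:143052801, chr7:143052803, chr7:143052591 and chr7:143548687 were named after their values were seen. Alternatives left out each library and reads marked by the sequencer's filter (5.38 to 5.64% of calls), and changed the minimum to 10 or 40 calls, the test, the window, the island and the pseudocount.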

Additional observations from a re-analysis of the deposited data

Results flagged for a closer look

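The maternal allele of the Kcnq1ot1 island fell under the minimum of 20 calls and entered no comparison, but it held a signal. Over all libraries 97.4% of its calls were methylated (38 of 39 calls, 95% Wilson interval 86.8 to 99.5). The paternal allele had 0 of 2826 calls methylated, which allows up to 0.136% by the same interval. Both limits cover counting error only and treat calls of 1 read as independent, so they are too narrow. The calls came from 9 domesticus reads, 6 of them in control replicate 1, 2 in depleted replicate 1 and 1 in depleted replicate 2. Of these, 8 were methylated at every call and 1 at part of them. No domesticus read of the island was present in control replicates 2 and 3, so a change after depletion could not be examined.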

How the results depend on the processing

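Of 296 recomputed values, 9 turned sign and 6 passed a threshold that the reported value had not. These 6 hold the 2 called Kcnq1 positions both singly and within position counts. None could lose a threshold, since no reported value had passed one. The Cdkn1c island difference (-15.5 points) was -11.8 on the top strand alone and between -16.4 and -14.7 with any library left out. With a replicate block it was -14.7, the same value as without control replicate 3. This contrast chose the gene, so nothing is read from its steadiness. Outside Cdkn1c, Fisher's exact test on pooled calls, which ignores the spread between libraries, called 1 of 29 domesticus positions against 0, with 2.78% of all positions called. Between alleles, a pseudocount of 1 called 1 position (chr7:143328638, adjusted p = 0.0417 in limma) and the limma fit with a trend, added after the data were seen, 2, against 0. Small gene differences turned sign, and the cause was not tested. For Kcnq1 castaneus (1.4 points) the value was -0.142 without filtered reads and -1.58 to 4.38 with a library left out. For Kcnq1 domesticus (-3.99) it was -10.2 without filtered reads, -15.2 at 40 calls, -9.16 with calls pooled and -8.15 to 0.227 with a library left out. Kcnq1 maternal minus paternal (-13.8) was -4.49 without filtered reads, -8.86 at 10 and -2.05 at 40 calls, the last from chr7:143412756 alone. With a library left out, the value was -0.328 to 5.33 for Phlda2 domesticus (2.50, and -2.27 at 10 calls), for Ascl2 castaneus (0.296) -0.192 to 0.784, and for Ascl2 maternal minus paternal (0.356) -0.0311 to 0.605. A minimum of 40 calls left no value for 11 results, the Cdkn1c island among them, and a window without flanks none for 6.

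The replicate numbers were not found to pair the samples, with correlations of deviations from -0.031 to 0.028 between same-numbered libraries. With the replicate block limma called 0 member positions in every comparison, but also 0 of all positions, so this says nothing about the members. The adjusted p of both Kcnq1 positions between alleles was then 0.4.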

Other observations

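Coverage of the Cdkn1c island was uneven between strands on the maternal allele, where called positions reached chr7:143461476, beyond the fragment. The domesticus top strand had 11, 11 and 33 calls in the control libraries and 20 in depleted replicate 2, with none in depleted replicate 1, while the domesticus bottom strand had 428 to 735 and the castaneus strands 284 to 716. Most maternal calls of Cdkn1c thus came from the bottom strand, but in control replicate 3, 3 of the 7 methylated calls were on the top strand, and its 1.52% was 0.935% on the bottom strand alone.

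In reads across chr7:143165685 and chr7:143165746 in Kcnq1, summed over the libraries, 42.5% of 219 castaneus and 34.7% of 294 domesticus reads were methylated at both CpGs. Methylation at the second CpG alone was found in 35.6% of castaneus and 18% of domesticus reads, and at the first alone in 15.1 and 30.3%. The ranges per library overlapped between alleles. They were 24 to 52.8% castaneus and 11.8 to 27.9% domesticus for the second alone, and 6.9 to 24% and 13 to 49% for the first alone.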
